A study of Ovis aries with 15 samples.

Results

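CXCL9, CXCL10, CXCL11, CXCL13, CCL19 and CCL21 are chemokine ligands, and CXCR3, CXCR5 and CCR7 are the receptors that read them. These 9 genes were taken by symbol from a table of 25592 sheep genes, and all 9 were present. They were chosen by name as a chemokine set, with their expression values in these same libraries already known, so their levels are given as a description, and the fits across all genes are given beside them without being read as independent support.

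The libraries came from the kidney of male Dorper × Small-tailed Han sheep aged 4 months and fed for 21 days. The CON group received a total mixed ration with no toxin added. The AFB1 group received aflatoxin B1, a mould toxin of cereal feed, at 500 µg/kg of feed dry matter. Sheep of the AFB1_CUR group ate that dose of AFB1 together with 800 mg/kg of curcumin, the yellow polyphenol of turmeric. Each group had 6 sheep, of which 5 gave a library of poly(A) RNA, and every value is from whole tissue. The comparison of AFB1 with CON asks about the toxin, that of AFB1_CUR with AFB1 about curcumin given with the toxin, and that of AFB1_CUR with CON about both together.

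Chemokines are small secreted proteins that steer leukocytes along concentration gradients through receptors coupled to G proteins. CXCL9, CXCL10 and CXCL11 are induced by interferon in myeloid, endothelial and epithelial cells and bind CXCR3 on activated T cells and NK cells. CXCL13, made by follicular stromal cells and some helper T cells, draws CXCR5-bearing B cells into follicles, while CCL19 and CCL21, made by stromal and lymphatic endothelial cells, bring CCR7-bearing T cells and dendritic cells into lymph nodes and into lymphoid clusters in inflamed tissue.

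The libraries held 50255295 to 68747047 counts. AFB1 replicate 1 stood apart: its 19 hepatocyte genes summed to 64010 FPKM (fragments scaled to gene length and library depth), against 99.9 to 484 FPKM in the other 14 libraries, and its 8 proximal tubule genes to 16.9 FPKM, against 925 to 2578 FPKM. Its kidney label went against its markers, so its values are given apart and it was left out of the fit, leaving 5 CON, 4 AFB1 and 5 AFB1_CUR libraries. CON replicate 2, AFB1 replicate 2 and AFB1_CUR replicate 2 are marked throughout, because most of the high values of the 9 genes fell in them. Results were also computed without these 3.

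The 9 genes lie in 5 places of the sheep genome (coordinates of the deposited table, which for these genes equal those of the RefSeq annotation of ARS-UI_Ramb_v3.0). CXCL9 (chr6:91611754-91618826), CXCL10 (chr6:91638144-91640497) and CXCL11 (chr6:91656797-91658591) stand in a row on the minus strand, with 19.3 kb and 16.3 kb between neighbours, and CXCL13 (chr6:93009389-93015340) follows 1350.8 kb beyond CXCL11 on the plus strand. CCL21 (chr2:36861993-36863196) and CCL19 (chr2:36883460-36885298) are 20.3 kb apart on the plus strand. CCR7 (chr11:40524382-40537854), CXCR3 (chrX:64270503-64273242) and CXCR5 (chr15:29212380-29224810) lie alone.

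Some of these genes share ground with a gene on the other strand, and the sources do not say whether strand was used in counting. CXCL9, CXCL10 and CXCL11 lie wholly within the span of ART3, which had 24 to 127 counts over the 14 libraries, beside 0 to 90 counts of CXCL11. In the CON, AFB1 and AFB1_CUR libraries numbered 2, ART3 had 94, 71 and 127 counts, where CXCL11 had 64, 90 and 8. Sharing of reads between ART3 and these ligands was not tested. CXCR5 shares 10185 bases with LOC121816632, whose count was 625 in AFB1_CUR replicate 2, 78 in AFB1 replicate 2 and 0 to 32 in the 11 libraries not marked. The CXCR5 counts were 1397, 370 and 0 to 19 in the same libraries, so the pair was high in the same libraries, and sharing of reads between CXCR5 and LOC121816632 was not tested. CXCR5 also shares 127 bases with BCL9L, which had 2885 to 4752 counts. CCR7 shares 4022 bases with LOC121820694, whose counts of 94 in AFB1_CUR replicate 2, 37 in AFB1 replicate 2 and 31 in CON replicate 2 were its 3 highest, against 4 to 28 in the other 11 kidney libraries.

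CXCL9 ranged from 1.36 to 36.9 FPKM. The CON libraries held 5.37, 19.1, 6.31, 1.36 and 1.42 FPKM of CXCL9 in replicates 1 to 5. The AFB1 libraries held 36.9, 5.17, 5.74 and 1.97 FPKM of it in replicates 2 to 5. The AFB1_CUR libraries held 8.37, 13.2, 1.83, 6.17 and 15.0 FPKM of it in replicates 1 to 5. The 3 groups overlapped over most of their range, with the highest value in AFB1 replicate 2 and the next in CON replicate 2. AFB1 replicate 1 held 4.83 FPKM of CXCL9. The group means were 6.72 ± 7.30 (SD, n = 5) in CON, 12.4 ± 16.4 (n = 4) in AFB1 and 8.93 ± 5.33 (n = 5) in AFB1_CUR, and without the marked libraries they were 3.61, 4.29 and 7.85 FPKM.

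CXCL10, the other strongly expressed interferon-induced ligand, was less concentrated in the marked libraries. CON held 9.35, 23.1, 6.72, 4.74 and 15.3 FPKM of CXCL10 in replicates 1 to 5. AFB1 held 18.5, 27.6, 8.14 and 2.25 FPKM in replicates 2 to 5, and AFB1 replicate 1 held 17.6 FPKM. AFB1_CUR held 9.87, 17.1, 5.63, 5.25 and 9.44 FPKM in replicates 1 to 5. Its highest value was in AFB1 replicate 3, a library that is not marked, and the AFB1 group spanned both ends of the range, so that CON and AFB1_CUR lay inside it. Of its FPKM summed over 14 libraries 17.0% was in the highest library, the smallest such share of the 9 genes, and 31.1% was in the top 2, beside 30.7% for CCL21.

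CXCL11, the CXCR3 ligand of highest affinity, was near the lower end of detection, with counts from 0 to 90. It held 0.11, 1.06, 0.12, 0.10 and 0 FPKM in CON replicates 1 to 5. It held 1.74, 0.46, 0.08 and 0.11 FPKM in AFB1 replicates 2 to 5, and 0.21 FPKM in AFB1 replicate 1. In AFB1_CUR replicates 1 to 5 it held 0.71, 0.15, 0.05, 0 and 0.45 FPKM. AFB1 replicate 2 and CON replicate 2 were the only libraries above 1 FPKM, and AFB1_CUR replicate 2, with 8 counts, was not among the high ones.

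**Figure D1:**
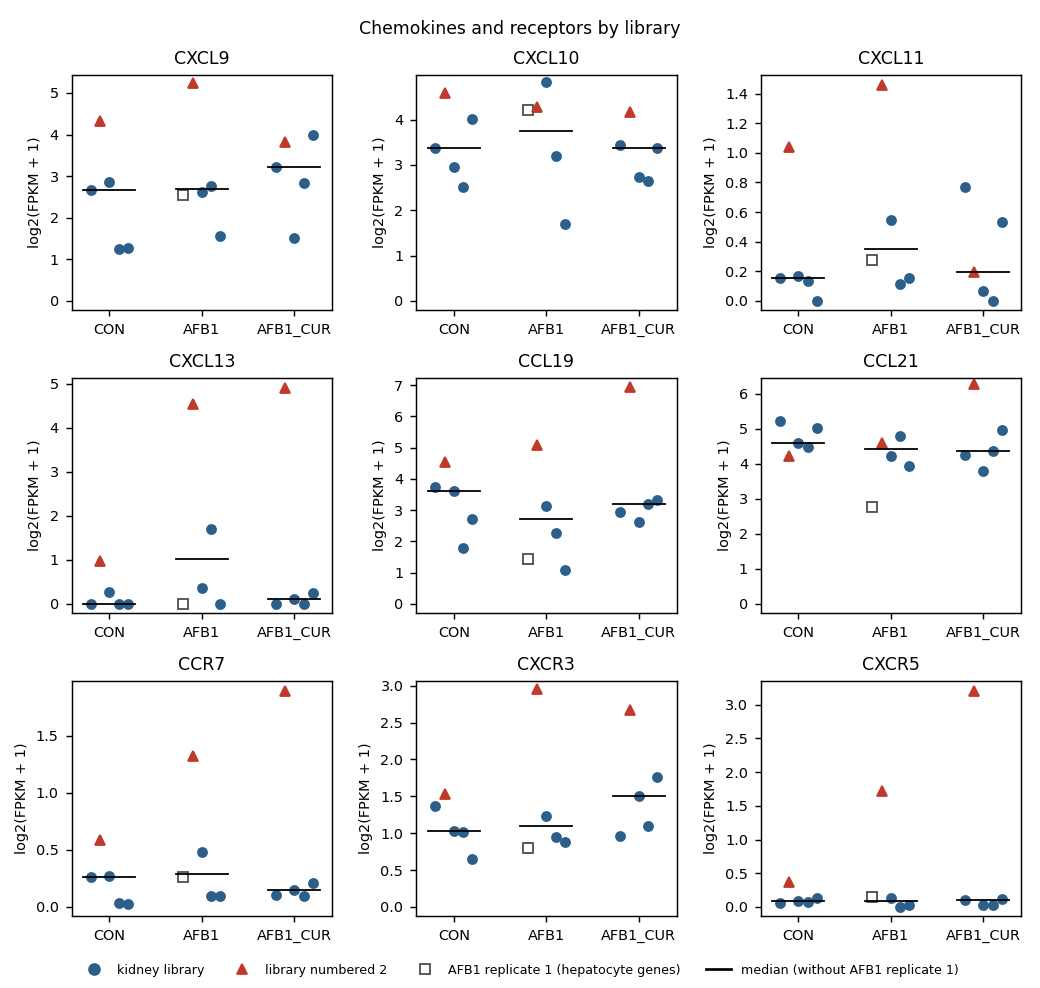
Level of each chemokine and receptor in each library as log2(FPKM + 1), by group, with triangles for the libraries numbered 2, an open square for AFB1 replicate 1 and a line at the group median without that library. For CXCL13, CXCR5 and CCR7 the triangles of AFB1 and AFB1_CUR stand far above the other libraries, while CXCL10 and CCL21 of the 3 groups overlap.

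CXCR3, the receptor of these 3 ligands, was low in most libraries. It held 1.58, 1.89, 1.04, 1.02 and 0.56 FPKM in CON replicates 1 to 5. It held 6.76, 1.36, 0.93 and 0.84 FPKM in AFB1 replicates 2 to 5 and 0.74 FPKM in AFB1 replicate 1. In AFB1_CUR replicates 1 to 5 it held 0.95, 5.37, 1.82, 1.13 and 2.39 FPKM. The replicates numbered 2 of AFB1 and AFB1_CUR were the highest, AFB1_CUR replicate 5 came next, and the groups overlapped.

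CXCL13, the ligand of B cell follicles, was at or near 0 in most kidneys. It was at 0 counts in CON replicates 1, 4 and 5, and held 0.97 FPKM in CON replicate 2 and 0.21 FPKM in CON replicate 3. In AFB1 replicates 2 to 5 it held 22.3, 0.28, 2.24 and 0 FPKM, and AFB1 replicate 1 had no count. In AFB1_CUR replicates 1 to 5 it held 0, 28.8, 0.08, 0 and 0.19 FPKM. AFB1_CUR replicate 2 and AFB1 replicate 2 together held 92.8% of the CXCL13 FPKM summed over the 14 libraries. A count of 0 allows up to 3 counts, which is 0.0436 to 0.0597 CPM at these depths and covers counting error only.

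CXCR5, the receptor of CXCL13, was below 0.1 FPKM in every unmarked kidney library, and the limit from LOC121816632 given above applies to its values. In CON replicates 1 to 5 it held 0.04, 0.30, 0.06, 0.05 and 0.09 FPKM. In AFB1 replicates 2 to 5 it held 2.29, 0.10, 0 and 0.02 FPKM, and 0.11 FPKM in AFB1 replicate 1. In AFB1_CUR replicates 1 to 5 it held 0.08, 8.19, 0.02, 0.02 and 0.09 FPKM. AFB1_CUR replicate 2 alone held 72.2% of the CXCR5 FPKM summed over the 14 libraries, the largest such share among the 9 genes.

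CCL19, a ligand of CCR7, was present in every library. CON replicates 1 to 5 held 12.5, 22.2, 11.4, 2.46 and 5.53 FPKM of CCL19. AFB1 replicates 2 to 5 held 33.0, 7.82, 3.86 and 1.11 FPKM, and AFB1 replicate 1 held 1.72 FPKM. AFB1_CUR replicates 1 to 5 held 6.70, 123.0, 5.19, 8.24 and 9.03 FPKM. The 3 libraries numbered 2 were the 3 highest. The means were 10.8 ± 7.57 FPKM (SD, n = 5) in CON, 11.5 ± 14.6 (n = 4) in AFB1 and 30.4 ± 51.8 (n = 5) in AFB1_CUR, and without the marked libraries they were 7.96, 4.27 and 7.29 FPKM.

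CCL21, the lymphatic ligand of CCR7, had the highest median of the 9 genes at 22.0 FPKM. CON replicates 1 to 5 held 36.1, 17.6, 23.0, 21.1 and 31.2 FPKM of CCL21. AFB1 replicates 2 to 5 held 23.1, 17.7, 26.9 and 14.5 FPKM, and AFB1 replicate 1 held 5.81 FPKM. AFB1_CUR replicates 1 to 5 held 18.1, 77.1, 12.8, 19.5 and 30.5 FPKM. Here CON replicate 2 and AFB1 replicate 2 were within the range of the unmarked libraries, and only AFB1_CUR replicate 2 lay above it.

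CCR7, the homing receptor of naive T cells and mature dendritic cells, held 0.20, 0.50, 0.20, 0.02 and 0.02 FPKM in CON replicates 1 to 5. It held 1.49, 0.39, 0.07 and 0.07 FPKM in AFB1 replicates 2 to 5, and 0.20 FPKM in AFB1 replicate 1. In AFB1_CUR replicates 1 to 5 it held 0.08, 2.70, 0.11, 0.07 and 0.15 FPKM. The order of the 3 highest libraries was that of CXCR5, namely AFB1_CUR replicate 2, AFB1 replicate 2 and CON replicate 2.

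Ordered by median FPKM over the 14 libraries, which compares genes per length, CCL21 (22.0) was followed by CXCL10 (9.40), CCL19 (8.03), CXCL9 (5.95), CXCR3 (1.24), CXCL13 (0.14), CCR7 (0.13), CXCL11 (0.12) and CXCR5 (0.07). CCL21 was above CXCL10 in 12 of 14 libraries, and CXCL9 was above CXCR3 in all 14. CXCL10 against CCL19 and CCL19 against CXCL9 kept this order in 9 of 14 libraries each. CXCL13 against CCR7, and CCR7 against CXCL11, kept it in 6 of 14, so these neighbours did not differ beyond their spread.

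The marked libraries of AFB1 and AFB1_CUR did not hold the same mixture. Of the 9 genes, CXCL13, CCL19, CCL21, CCR7 and CXCR5 had their highest level in AFB1_CUR replicate 2, and CXCL9, CXCL11 and CXCR3 in AFB1 replicate 2. AFB1_CUR replicate 2 held the highest value of 34.5% of the 13162 genes tested and AFB1 replicate 2 that of 7.42%, so a high rank in the former was common among all genes. CCL19 was 3.73-fold, CCL21 3.33-fold and CXCR5 3.58-fold higher in AFB1_CUR replicate 2 than in AFB1 replicate 2. CXCL13 was 1.30-fold and CCR7 1.81-fold higher there. In AFB1 replicate 2 CXCL9 was 2.79-fold, CXCR3 1.26-fold and CXCL11 11.9-fold higher, the last from 90 against 8 counts. CXCL10 differed by 1.08-fold. Each of these ratios compares single libraries and has no replicate check.

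**Figure D2:**
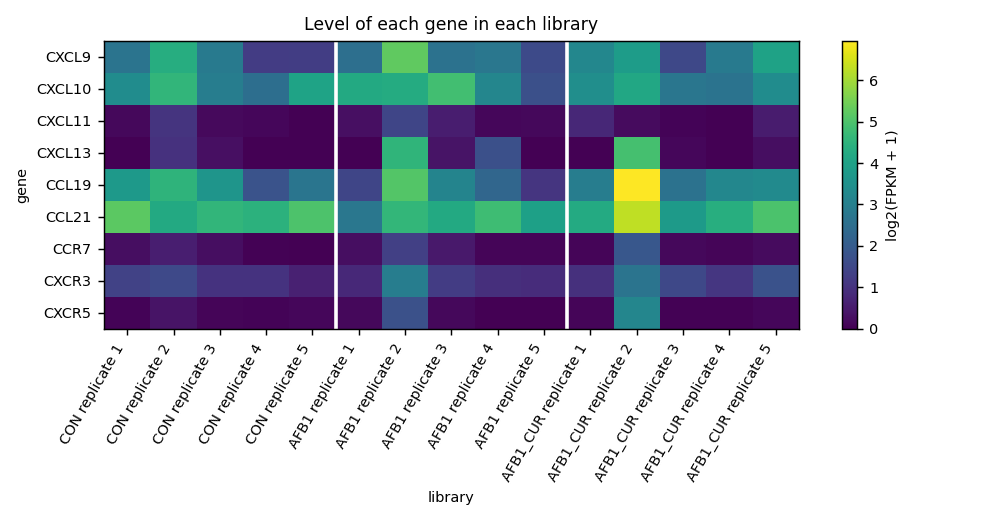
Level of the 9 genes (rows) in each of the 15 libraries (columns, white lines between CON, AFB1 and AFB1_CUR) as log2(FPKM + 1). The lymphoid ligands CXCL13 and CCL19 and the receptors CCR7 and CXCR5 are brightest in AFB1_CUR replicate 2, and CXCL9 and CXCR3 in AFB1 replicate 2.

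Ratios between neighbouring genes moved over a wide range. CXCL9 over CXCL10 had a median of 0.802 over the 14 libraries and ran from 0.0927 in CON replicate 5 to 1.99 in AFB1 replicate 2. CCL19 over CCL21 had a median of 0.389 and ran from 0.0771 in AFB1 replicate 5 to 1.60 in AFB1_CUR replicate 2. It was above 1 in 3 of 14 libraries, and these were the 3 numbered 2, with 1.26 in CON, 1.43 in AFB1 and 1.60 in AFB1_CUR.

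Across the 14 libraries, 35 of the 36 pairs of the 9 genes had a positive Pearson r of log2(FPKM + 1), with a median of 0.620. CCR7 with CXCR5 had the highest r at 0.967 (Spearman rho 0.640). Without AFB1 replicate 2 and AFB1_CUR replicate 2 the median fell to 0.454, with 32 of 36 pairs positive. The r of CXCL13 with CXCR5 went from 0.921 to 0.202, so that relation rested on those libraries, whereas the r of CXCL9 with CXCL11 went from 0.789 to 0.743. All points share libraries and depth, and these values are descriptions only.

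Few group differences exceeded the spread between libraries. Counts were fitted with edgeR over all genes with at least 1 FPKM in at least 5 libraries. A call needed an edgeR p below 0.05 before adjustment together with a change of over 1.5-fold in either direction. Of the 9 genes, CXCL9, CXCL10, CCL19, CCL21 and CXCR3 passed the filter. In AFB1 against CON 0 of these 5 were called, where 1.76% of the 13162 genes tested were. In AFB1_CUR against AFB1 0 of 5 were called (0.935% of all genes), and in AFB1_CUR against CON 0 of 5 (1.63%). With Benjamini-Hochberg adjustment in edgeR no gene of the table passed 0.05 in any of the comparisons, while 664, 303 and 723 genes had an unadjusted p under 0.05 and DESeq2 called 17, 3 and 1 after adjustment. The libraries are labelled as separate samples of each group, and the p-values measure only the spread between them.

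For the interferon-induced axis, the log2 fold change of CXCL9 in AFB1 against CON was 0.85 (SE 0.85, edgeR adjusted p = 0.965). That of CXCL10 was 0.23 (SE 0.57, edgeR adjusted p = 0.978). CXCR3 had 0.96 (SE 0.61, edgeR adjusted p = 0.957), which became -0.01 without the 3 marked libraries. In AFB1_CUR against AFB1 the log2 fold changes were -0.49 (SE 0.85) for CXCL9, -0.63 (SE 0.57) for CXCL10 and -0.14 (SE 0.60) for CXCR3, and without the marked libraries that of CXCL9 was 0.82. In AFB1_CUR against CON they were 0.36 (SE 0.81) for CXCL9, -0.40 (SE 0.54) for CXCL10 and 0.81 (SE 0.58) for CXCR3. None of these differences passed the threshold.

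For the lymphoid axis, CCL19 had a log2 fold change of 0.02 (SE 1.01) in AFB1 against CON, 1.30 (SE 1.04) in AFB1_CUR against AFB1 and 1.32 (SE 0.97) in AFB1_CUR against CON. The smallest of the 3 unadjusted edgeR p-values was 0.194. Without the marked libraries the values for CCL19 were -0.93 (SE 0.60), 0.76 (SE 0.60) and -0.17 (SE 0.54). Leaving out only AFB1 replicate 2, the other high library, gave 2.64 in AFB1_CUR against AFB1 with an unadjusted edgeR p of 0.0361, so that CCL19 was called there. In that fit 2.06% of all tested genes were called, and 0 after adjustment. Leaving out only AFB1_CUR replicate 2 gave -0.59 for CCL19 in the same comparison, and CCL19 was not called. CCL21 had -0.35 (SE 0.41), 0.50 (SE 0.41) and 0.15 (SE 0.38) in the order of comparisons given for CCL19, and -0.49, -0.02 and -0.52 without the marked libraries.

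CXCL11, CXCL13, CCR7 and CXCR5 were below the filter, and their values come from a fit of all 25449 genes with a count, where 3.41%, 2.78% and 3.65% of genes were called in the 3 comparisons. CXCL13 had a log2 fold change of 4.58 (SE 2.17, edgeR adjusted p = 0.848) in AFB1 against CON and of 4.34 (SE 2.11, edgeR adjusted p = 0.725) in AFB1_CUR against CON, and neither was called. When only the CON and AFB1 libraries were fitted, CXCL13 in AFB1 against CON was called at the same fold change of 4.58. These folds rest on groups with counts of 0 in 3 of 5 CON libraries and depend on the small value the fit adds to them. CXCR5 had 3.68 (SE 1.72, edgeR adjusted p = 0.725) in AFB1_CUR against CON, the only call among the 4 genes in the fit of all 14 libraries. Without AFB1_CUR replicate 2 this became -0.98, and without the 3 marked libraries -0.27. The call was also lost with all 15 libraries (3.70) and with limma on log2(FPKM + 1), where the difference was 0.55, or on log2(FPKM + 0.1), where it was 0.79. CCR7 had 1.35 (SE 1.20), 0.15 (SE 1.20) and 1.5 (SE 1.15) in the 3 comparisons, and CXCL11 had 1.06 (SE 1.25), -1.09 (SE 1.25) and -0.03 (SE 1.19).

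**Figure D3:**
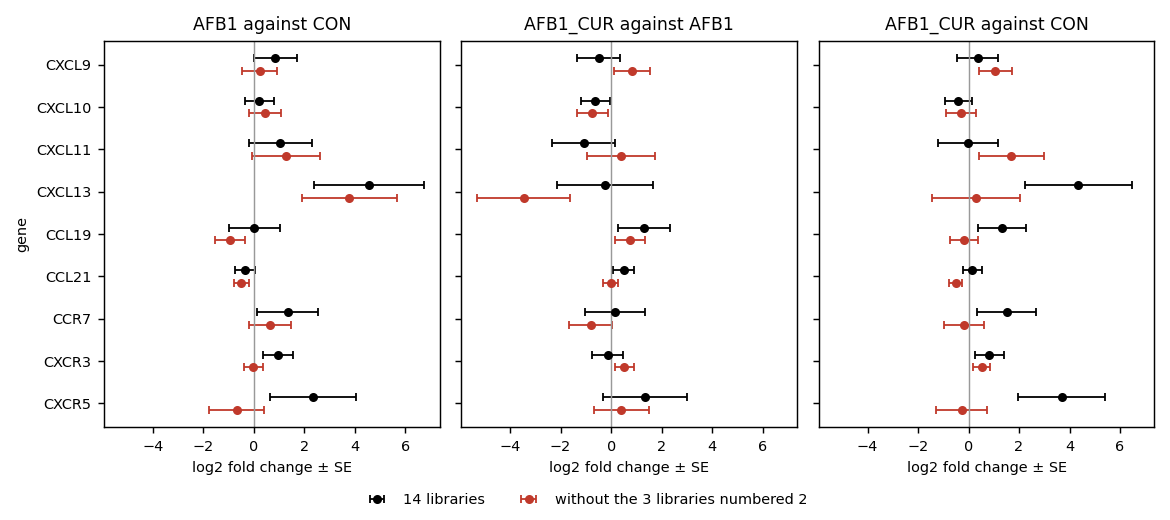
Log2 fold change with its standard error from edgeR for the 9 genes in the 3 comparisons, with all 14 libraries (black) and without the 3 libraries numbered 2 (red). CXCR5 in AFB1_CUR against CON goes from 3.68 to -0.27 and CXCL13 from 4.34 to 0.30, while CXCL10 stays within 1 standard error of its value in each comparison.

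CXCL13 and CXCR5 were also the genes whose calls changed most with single libraries. CXCL13 in AFB1 against CON was called when CON replicate 2 (6.45), AFB1 replicate 3 (4.98), AFB1 replicate 5 (4.99), AFB1_CUR replicate 1 (4.58), AFB1_CUR replicate 2 (4.61) or AFB1_CUR replicate 4 (4.58) was left out. Without AFB1 replicate 2 it was 1.86 and not called. In AFB1_CUR against CON it was called without CON replicate 2 (6.21), AFB1 replicate 5 (4.34), AFB1_CUR replicate 1 (4.66), AFB1_CUR replicate 3 (4.68) or AFB1_CUR replicate 4 (4.66), and it was -1.61 without AFB1_CUR replicate 2. In AFB1_CUR against AFB1 CXCL13 was called lower without AFB1_CUR replicate 2 (-6.21) and CXCR5 higher without AFB1 replicate 2 (5.04). Of all genes 3.18% and 3.52% were called in these refits. The call of CXCR5 in AFB1_CUR against CON was lost without CON replicates 1 (3.49), 3 (3.52), 4 (3.52) or 5 (3.65) or AFB1 replicate 3 (3.68).

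No gene of the 9 had groups that did not overlap: 0 of 9 in AFB1 against CON, in AFB1_CUR against AFB1 and in AFB1_CUR against CON, where 1.54%, 0.676% and 0.722% of the tested genes did.

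Lists of B cell, T cell, NK and plasma cell markers had their highest summed levels in the same libraries. In bulk tissue fewer cells of a type and less RNA per cell cannot be told apart. The 9 B cell genes summed to 209 FPKM in AFB1_CUR replicate 2, to 58.7 in AFB1 replicate 2 and to 2.42 to 11.96 FPKM in the other 12 kidney libraries. Each of the 9 was highest in AFB1_CUR replicate 2, as were 34.5% of all tested genes. CD79B, PAX5 and TNFRSF13C of that list had a count of 0 in some library. MS4A1, which encodes the B cell surface protein CD20, was at 46.3 FPKM in AFB1_CUR replicate 2 and 7.57 FPKM in AFB1 replicate 2. The 11 T cell genes summed to 171 and 130 FPKM in those libraries and to 17.5 to 62.5 FPKM in the other 12, with CD28 at 0 in some library. The 4 NK and cytotoxic genes summed to 27.6 and 27.0 FPKM, against 5.35 to 22.8 FPKM, and PRF1 (perforin) of that list was highest in AFB1_CUR replicate 5 at 7.15 FPKM, with 5.71 FPKM in AFB1_CUR replicate 2. The 5 plasma cell genes summed to 1019 and 749 FPKM, against 54.7 to 149 FPKM. Their part in the chemokine levels was not tested.

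CR2, a complement receptor of B cells and follicular dendritic cells, was at 44.9 FPKM in AFB1_CUR replicate 2 and at 3.90 FPKM in AFB1 replicate 2. FCER2, listed with it, was at 8.63 and 1.33 FPKM in these libraries, while MADCAM1, the third of that list, was at its lowest of the 14 libraries in AFB1_CUR replicate 2 (0.343 FPKM) and its highest in AFB1 replicate 2 (2.06 FPKM). The 7 dendritic cell genes summed to 59.1 FPKM in AFB1_CUR replicate 2 and 34.7 FPKM in AFB1 replicate 2, against 6.15 to 22.9 FPKM. The 6 macrophage and monocyte genes summed to 90.8 and 73.7 FPKM, against 15.0 to 37.5 FPKM. The 4 lymphatic endothelial genes other than CCL21 summed to 35.4 FPKM in AFB1_CUR replicate 2, 19.6 FPKM in AFB1 replicate 2 and 11.3 to 23.2 FPKM elsewhere. The 5 blood endothelial genes, at 312 and 314 FPKM, were inside the range of 206 to 331 FPKM of the other libraries. CON replicate 2, high in CXCL9 and CXCL11, held 11.5 FPKM of the B cell genes and 59.9 FPKM of the T cell genes, both within the range of the others.

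Some genes of fat, adrenal and liver also differed among the marked libraries. The 4 adipocyte genes summed to 63.6 FPKM in AFB1 replicate 2 and to 6.76 FPKM in AFB1_CUR replicate 2, against 0.238 to 5.19 FPKM in the other 12. FABP4, a fatty acid binding protein, gave 62.9 of the 63.6 FPKM in AFB1 replicate 2, while ADIPOQ, the defining adipokine, was at 0.0381 FPKM and PLIN1, of the lipid droplet, at 0.319 FPKM. The 8 adrenal genes summed to 20.8 FPKM in AFB1_CUR replicate 2 and 8.54 FPKM in AFB1 replicate 2, against 1.84 to 5.63 FPKM. In AFB1_CUR replicate 2 most of this came from STAR (10.8 FPKM), CYP11A1 (4.57 FPKM) and CHGA (3.97 FPKM), whereas HSD3B1 (0.754 FPKM) was the lowest of the 14 libraries. Of the 19 hepatocyte genes 10 were highest in AFB1 replicate 2 among the 14, beside 7.42% of all tested genes. Among them were ALB (albumin) at 23.9 FPKM, against at most 11.8 FPKM in the others, and FGB (fibrinogen beta chain) at 11.4 FPKM. The 19 genes summed to 251 FPKM in AFB1 replicate 2, within the range of 194 to 484 FPKM of the other 12, and to 99.9 FPKM in AFB1_CUR replicate 2. In AFB1_CUR replicate 2 the 9 genes of the loop of Henle and collecting duct summed to 807 FPKM, below the 943 to 2825 FPKM of the other 12. The part of these genes or tissues in the chemokine levels was not tested.

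**Figure D4:**
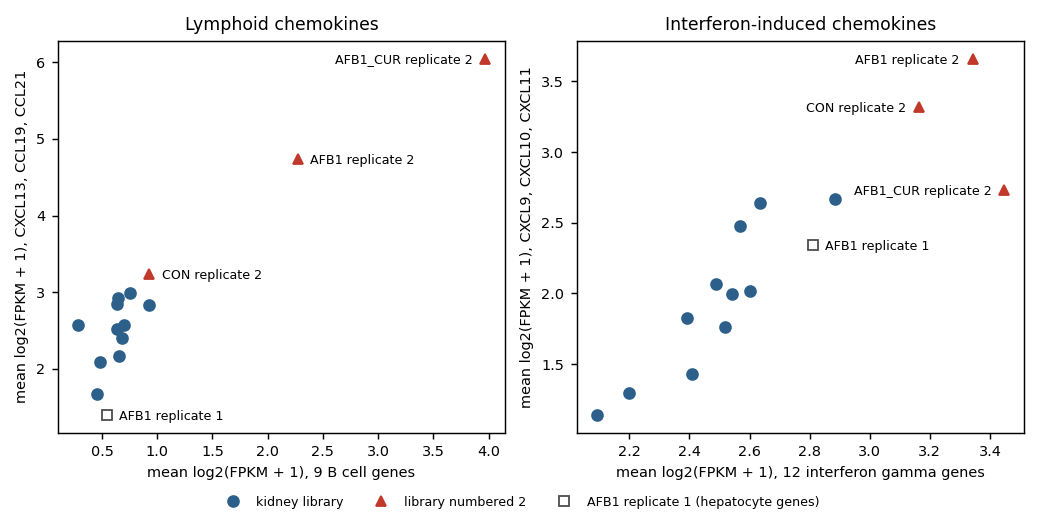
Mean log2(FPKM + 1) of CXCL13, CCL19 and CCL21 against that of 9 B cell genes (left), and of CXCL9, CXCL10 and CXCL11 against that of 12 interferon gamma genes (right), for each library. On the left AFB1_CUR replicate 2 (3.97, 6.05) and AFB1 replicate 2 (2.27, 4.74) stand alone, and on the right the libraries numbered 2 have the 3 highest scores on the horizontal axis.

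The rest of the chemokine system was read from lists of genes. Of the 16 interferon gamma genes listed 12 were in the table and 11 passed the filter, and 0 of 11 were called in each of the 3 comparisons, where 1.76%, 0.935% and 1.63% of all tested genes were, so that 0 is near the background. The list had a median log2 fold change of 0.18 in AFB1 against CON beside 0.02 over all genes tested. Of the 12 present, 6 were highest in AFB1_CUR replicate 2, 2 in AFB1 replicate 2 and 1 in CON replicate 2. Of all tested genes 34.5%, 7.42% and 5.16% were highest in these libraries. IRF1, a transcription factor that interferon gamma induces, was highest in CON replicate 2 at 21.7 FPKM, with 21.3 and 20.6 FPKM in the other marked libraries and a median of 12.8 FPKM over the 14. IFNG itself was at 0 to 0.567 FPKM. IDO1, an interferon-induced enzyme that breaks down tryptophan, was at 13.7 FPKM in AFB1 replicate 2 and 13.6 FPKM in CON replicate 2, against a median of 1.81 FPKM.

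Of 12 genes of lymphotoxin and non-canonical NF-kB signalling, the route that induces CXCL13, CCL19 and CCL21 in lymphoid stroma, 7 passed the filter. With those below it counted too, 11 of 12 were highest in AFB1_CUR replicate 2, where 34.5% of the genes above the filter were highest. LTB, which encodes lymphotoxin beta, was at 36.2 FPKM there and at 9.36 FPKM in AFB1 replicate 2, with a median of 2.43 FPKM. In AFB1_CUR against CON 1 of these 7 was called higher, where 1.05% of all tested genes were: TNFSF13B, the B cell survival factor BAFF, with a log2 fold change of 1.06 (SE 0.47, edgeR adjusted p = 0.823). Without the marked libraries it had 0.54 and was not called. In AFB1 against CON and in AFB1_CUR against AFB1 0 of 7 were called.

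Of 14 other chemokine receptors 11 were in the table. Of these, 7 were highest in AFB1_CUR replicate 2, beside 34.5% of all tested genes, a share over genes above the filter only. Only 4 of the 11 were tested. In AFB1 against CON 1 of these 4 was called higher, where 0.653% of all tested genes were. It was CX3CR1, a receptor of monocytes and cytotoxic T cells, with a log2 fold change of 0.78 (SE 0.32, edgeR adjusted p = 0.957), 1.06 without the marked libraries and 0.59 with AFB1 replicate 1 included, where it was not called. With AFB1 replicate 1 included, when 4.84% of genes were called in AFB1 against CON, IFNGR2 (1.57), a subunit of the interferon gamma receptor, and RELB (0.77), a non-canonical NF-kB subunit, were called there. Of 25 other ligands 16 were present and 8 tested, and 0 of 8 were called in each comparison, as were 0 of 6 decoy receptors and partners tested. Beside the 1.76%, 0.935% and 1.63% of all tested genes called, these counts say nothing particular about either list. CXCL16, the membrane-bound ligand of CXCR6, was steady at 21.1 to 34.0 FPKM, and CXCL12, the ligand that holds leukocytes through CXCR4, was at 25.5 to 71.4 FPKM. CXCR4 itself was at 39.3 FPKM in AFB1_CUR replicate 2 against a median of 6.36 FPKM.

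The genes most like the ligands were found by Pearson r of log2(FPKM + 1) over the 14 libraries. For the mean of CXCL9, CXCL10 and CXCL11 they were CLEC4A (r = 0.940, rho = 0.952), TSPAN5 (r = 0.930), WARS1 (r = 0.915), NLRC5 (r = 0.911) and UBAP2 (r = 0.910). Without AFB1 replicate 2 and CON replicate 2, the libraries farthest from the median, the r of CLEC4A was 0.947. For the mean of CXCL13, CCL19 and CCL21 they were PTK2B (r = 0.975, rho = 0.820), DEPDC5 (r = 0.972), SYNGR2 (r = 0.972), KIFC1 (r = 0.970) and KCNK6 (r = 0.969). Each of these 5 was highest in AFB1_CUR replicate 2. That library held the highest ligand mean (6.05) and the highest value of 34.5% of all tested genes, so the choice by r favoured such genes. Without it and AFB1 replicate 2 the r of PTK2B was 0.798.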

How the data were processed

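Poly(A) RNA of sheep kidney was sequenced in 15 libraries. The authors deposited gene counts and FPKM for 25592 genes; per the labels' processing notes, reads were handled with cutadapt 1.9, HISAT2 2.2.1 and StringTie 2.1.6, and the setting for strand was not given in the sources used here. Groups came from the treatment labels. The 9 genes and all lists were chosen with earlier results of these data known. The named genes were the 9, all of them, plus the 5 most correlated tested genes per ligand set. Of the listed genes, the examples named were chosen after their values were seen.

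Counts were scaled by TMM and fitted with edgeR 4.0.16 (estimateDisp, glmQLFit, glmQLFTest) in R 4.3.3 on 14 libraries, with the 3 groups in 1 fit and genes of at least 1 FPKM in at least 5 libraries. Log values used log2(FPKM + 1). The fit was tested on simulated data. Alternatives included DESeq2 1.42.0, limma 3.58.1 on log2(FPKM + 1) and log2(FPKM + 0.1), other filters and left-out libraries. No sequences were printed.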

Additional observations from a re-analysis of the deposited data

Results flagged for a closer look

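In each group of 4 or 5 kidney libraries, a value was marked where its gap to the nearest library was large for the range of the group (Dixon's test at 95%). This marked 13 of 27 combinations of gene and group, and every marked value was the highest of its group and came from a library numbered 2. Chance marks about 1 in 20 groups of independent, normally distributed values, but these FPKM values are skewed, the genes share libraries, and those libraries had been singled out for their high values of these same genes, so the count restates that pattern and tests nothing.

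In CON replicate 2 these were CXCL9 at 19.1 FPKM, CXCL11 at 1.06, CXCL13 at 0.975 and CXCR5 at 0.295. In AFB1 replicate 2 they were CXCL9 at 36.9 FPKM, CXCL13 at 22.3, CXCR3 at 6.76 and CXCR5 at 2.29. In AFB1_CUR replicate 2 they were CXCL13 at 28.8 FPKM, CCL19 at 123.0, CCL21 at 77.1, CCR7 at 2.70 and CXCR5 at 8.19. CXCL13 and CXCR5 were marked in all 3 groups, and CXCL10 in none.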

How the results depend on the processing

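Of 603 alternative log2 fold changes of the 9 genes, 511 kept their direction and their side of the threshold, 15 passed it, 9 fell below it and 68 changed sign; DESeq2 gave no p for CXCL13 and CXCR5. The cause of the sign changes was not tested.

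With all 15 libraries 639 genes were called in AFB1 against CON, 525 in AFB1_CUR against AFB1 and 131 in AFB1_CUR against CON, in place of 232, 123 and 214. CCL19 then had -0.20 in AFB1 against CON, and CXCL13 had 0.07 and CXCR3 0.01 in AFB1_CUR against AFB1. With limma on log2(FPKM + 1) 105, 81 and 80 genes were called, and with no FPKM filter 867, 707 and 928, CXCR5 being the 1 member called in AFB1_CUR against CON. Without the 3 libraries numbered 2, 219 genes were called in AFB1_CUR against AFB1.

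Without the libraries numbered 2, the sign changed in AFB1 against CON for CCL19 (-0.93), CXCR3 (-0.01) and CXCR5 (-0.68), in AFB1_CUR against AFB1 for CXCL9 (0.82), CXCL11 (0.39), CCL21 (-0.02), CCR7 (-0.81) and CXCR3 (0.53), and in AFB1_CUR against CON for CXCL11 (1.69), CCL19 (-0.17), CCL21 (-0.52), CCR7 (-0.18) and CXCR5 (-0.27). With limma on log2(FPKM + 1) it changed for CCL19 (-0.39) in AFB1 against CON, for CXCL9 (0.03), CCR7 (-0.01) and CXCR3 (0.09) in AFB1_CUR against AFB1 and for CXCL11 (0.01) in AFB1_CUR against CON. On log2(FPKM + 0.1) it changed for CXCL10 (-0.03) and CCL19 (-0.52), for CXCL9 (0.07), CCR7 (-0.20) and CXCR3 (0.20), and for CXCL11 (0.11) in the same order of comparisons.

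The replicate numbers did not meet the bar for pairing, which asked for every same-number pair to be over 0.1: 7 of 13 pairs with the same number had correlated deviations over 0.1 (r from -0.309 to 0.599, median 0.124), against 15 of 52 pairs with different numbers (median -0.027), and 4 of 14 libraries correlated best with their own number, although the 3 pairs numbered 2 had r from 0.396 to 0.599. With the replicate block 228, 150 and 282 genes and 0 of the 5 members were called. Under the block the sign changed for CCL19 (-0.60) and CXCR5 (-0.36) in AFB1 against CON, for CXCL9 (0.19), CCR7 (-0.13) and CXCR3 (0.20) in AFB1_CUR against AFB1, and for CXCL11 (0.23) and CCL21 (-0.03) in AFB1_CUR against CON, where CXCR5 had 0.57 and was not called.

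With each library left out in turn, 206 to 458 genes were called in AFB1 against CON, 120 to 271 in AFB1_CUR against AFB1 and 123 to 312 in AFB1_CUR against CON, and 0 to 1 members in AFB1_CUR against AFB1 (CCL19, without AFB1 replicate 2). The fold changes in AFB1 against CON ran from -0.59 to 1.68 for CXCL9, -0.32 to 0.57 for CXCL10, -0.23 to 2.58 for CXCL11, 1.86 to 6.45 for CXCL13, -1.32 to 0.41 for CCL19, -0.05 to 2.04 for CCR7, -0.19 to 1.22 for CXCR3 and -1.36 to 3.06 for CXCR5. In AFB1_CUR against AFB1 they ran from -0.84 to 0.95 for CXCL9, -1.88 to 0.19 for CXCL11, -6.21 to 2.48 for CXCL13, -0.59 to 2.64 for CCL19, -0.05 to 0.70 for CCL21, -2.24 to 1.55 for CCR7, -0.63 to 1.0 for CXCR3 and -3.35 to 5.04 for CXCR5. In AFB1_CUR against CON they ran from -0.82 to 1.49 for CXCL11, -1.61 to 6.21 for CXCL13, -0.57 to 1.71 for CCL19, -0.40 to 0.35 for CCL21, -0.87 to 2.2 for CCR7 and -0.98 to 4.40 for CXCR5.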
